A study of Homo sapiens with 4 samples.

Results

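The 10 genes described here encode the c-Jun N-terminal kinases JNK1 and JNK2 and the transcription factors of the AP-1 group. They are *MAPK8*, *MAPK9*, *JUN*, *JUNB*, *JUND*, *FOS*, *FOSB*, *FOSL1*, *FOSL2* and *ATF3*, chosen by name from the 63677 genes of the count table. Their RNA was measured in LX-2 cells, a human hepatic stellate cell line that is long established in culture. One group of cells received the miR-6133-5p mimic and the other a negative control mimic (miControl), each at 20 nM. All cells received 5 ng/mL of rhTGF-β1 24 h after transfection, and RNA was taken 24 h later, with 2 libraries per group. The comparison asks how RNA of this branch differed between mimic and control in cells that all received TGF-β.

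JNKs are MAP kinases that stress signals, cytokines and TGF-β switch on through a cascade of upstream kinases. Once active, they phosphorylate c-Jun and related factors. AP-1 is a dimer of a JUN protein with a FOS, ATF or another JUN protein, joined by a leucine zipper, and it binds short palindromic DNA elements. In hepatic stellate cells, the JNK and AP-1 branch is known for its part in the response to TGF-β and PDGF, in proliferation and in the expression of matrix genes. RNA levels do not report the phosphorylation of JNK or c-Jun, which was not analysed here.

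The mimic stands for a product of the *MIR6133* gene, which lies at chr7:133290881-133290988 on the plus strand of GRCh38.p14. Its hairpin as RefSeq gives it is shown as the precursor of the miRNA that the mimic copies. It does not show which stretch of it the mimic held, and the mature sequence was not used here:
MIR6133 hairpin: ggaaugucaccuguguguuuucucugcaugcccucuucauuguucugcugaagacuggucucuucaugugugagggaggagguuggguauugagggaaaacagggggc

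The libraries differed in depth, with gene count totals of 51862006 and 57903388 for miControl replicates 1 and 2 and of 61747010 and 93811213 for miR-6133-5p replicates 1 and 2. Values are given below in that order of replicates. Levels are given as CPM, the counts of a gene per 1000000 counts of its library, with the library total scaled by edgeR's TMM factors. Levels of different genes are compared after division by exon length, as CPM per kb. Summed marker levels with their largest parts, and shares marked as without length scaling, use plain CPM. A gene was called lower or higher when the adjusted p-value of edgeR's quasi-likelihood test (2-sided, Benjamini-Hochberg adjustment over 18252 tested genes) was below 0.01 and the log2 fold change was beyond 0.8. The labels do not say that the replicates were separate cultures, so the p-values measure the spread between these libraries, which may be technical. Each SE is the absolute log2 fold change divided by the square root of the F statistic of the quasi-likelihood test. It is thus worked back from the test and is not a fitted standard error. An exact permutation test of 2 libraries against 2 cannot give a p-value below 0.333. In whole-culture RNA, fewer cells of one state and less RNA per cell cannot be told apart.

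All 10 genes passed the filter on low counts. With miR-6133-5p, *FOS* and *FOSL2* fell, and the other 8 were not called. These 2 of 10 genes compare with 5.54% of all tested genes called lower. None of the 10 was called higher by edgeR, against 2.90% of all tested genes, and DESeq2 also called 0 of them higher. At an unadjusted p-value below 0.05, 7 of the 10 were lower and 1 was higher. Over all 18252 tested genes, 3706 were lower and 3642 higher at that cut. Under a looser rule, an adjusted p-value below 0.05 with no fold threshold, 6 of the 10 were lower (16.1% of all tested genes) and 1 was higher (14.1%). Those lower were *MAPK9*, *JUN*, *JUNB*, *FOS*, *FOSB* and *FOSL2*, and the one higher was *JUND*. Of these, *JUNB*, *FOS*, *FOSB* and *JUND* missed this rule with some single libraries left out, as given for each gene below. The median log2 fold change of the 10 was -0.52, against 0.03 for all tested genes. The libraries of the groups did not overlap for any of the 10 genes, with miR-6133-5p below miControl for 7 (31.3% of all tested genes) and above it for 3 (33.2%).

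**Figure D1:**
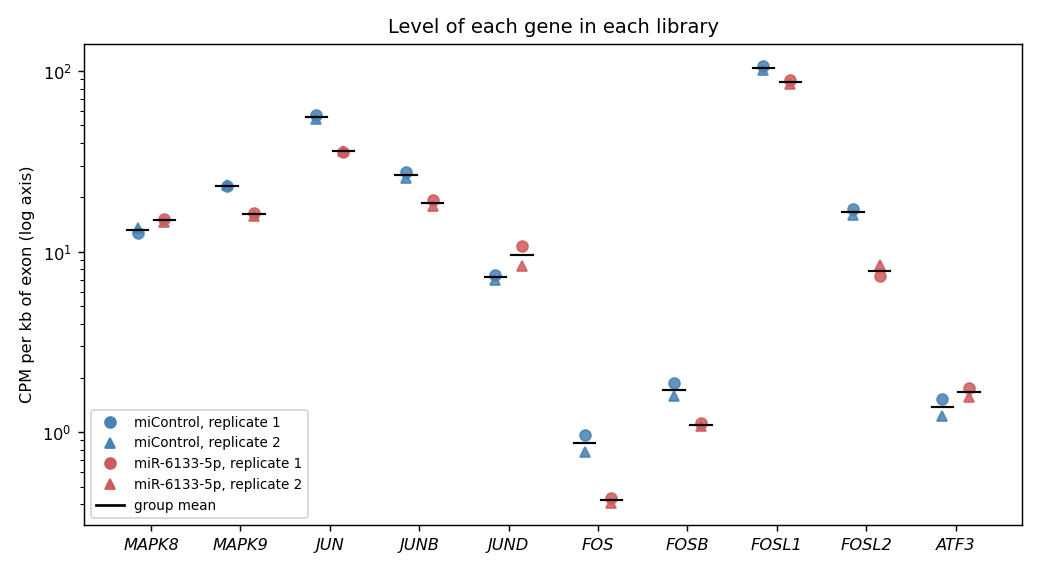
Level of each JNK and AP-1 gene in CPM per kb of exon (vertical log axis) in each of the 4 libraries, with circles for replicate 1, triangles for replicate 2 and a black line at the group mean (n = 2). The highest gene in both groups was *FOSL1* and the lowest was *FOS*, and no gene had overlapping groups.

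The genes covered a wide range of levels. In the miControl libraries, *FOSL1* was the most abundant, at 104 ± 3.24 CPM per kb (SD, n = 2), and *JUN* followed at 56.0 ± 2.09 CPM per kb. The order then ran through *JUNB*, *MAPK9*, *FOSL2*, *MAPK8*, *JUND*, *FOSB* and *ATF3* to *FOS*, at 0.871 ± 0.140 CPM per kb, and the libraries of neighbours in this order did not overlap. In the miR-6133-5p libraries *FOSL1* and *JUN* were again the highest, at 87.0 ± 3.57 and 36.0 ± 0.374 CPM per kb. *FOSL2* lay above *MAPK8* and *JUND* in CPM per kb with miControl and below *MAPK8* with miR-6133-5p, where its libraries overlapped those of *JUND*. *ATF3* and *FOSB* also lay in the other order with miR-6133-5p. The changes of order against *MAPK8* and between *ATF3* and *FOSB* depend on the exon length used. With the longest transcript in place of all exons, *FOSL2* lay below *MAPK8* in both groups (17.7 and 21.0 CPM per kb in miControl, 8.39 and 23.9 CPM per kb in miR-6133-5p). *ATF3* was then above *FOSB* in miR-6133-5p (3.16 and 1.62 CPM per kb) and next to it in miControl (2.62 and 2.54 CPM per kb). *MAPK9* was 43.4 rather than 23.2 CPM per kb in miControl, above *JUNB*.

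The kinases themselves are the last step of the JNK cascade. *MAPK8* (ENSG00000107643) encodes JNK1, and its gene spans 49514682 to 49647403 of chromosome 10 in GRCh37, the build of all gene positions given here. The *MAPK8* level was 123 and 131 CPM in the miControl libraries and 147 and 141 CPM in the miR-6133-5p libraries. The treated libraries were the higher ones, by a small margin. The log2 fold change was 0.19 (SE 0.102, adjusted p = 0.194, edgeR quasi-likelihood test with Benjamini-Hochberg adjustment), which did not pass either rule. *MAPK9* (ENSG00000050748) encodes JNK2, the other widely expressed JNK, and lies on chromosome 5 from 179660143 to 179719099. It was measured at 206 and 210 CPM with miControl and at 147 and 141 CPM with miR-6133-5p. The treated libraries were the lower ones, and the gap was larger than the spread within either group. The log2 fold change of -0.53 (SE 0.101, adjusted p = 0.00137, edgeR quasi-likelihood test with Benjamini-Hochberg adjustment) passed the looser rule and stayed short of the fold threshold. *MAPK10*, the gene of the JNK best known from neurons, was near the limit of counting, with 8 to 19 counts per library. The JNK counts thus came almost wholly from *MAPK8* and *MAPK9*, whose mean levels were 13.1 and 23.2 CPM per kb with miControl and 14.9 and 16.1 CPM per kb with miR-6133-5p.

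The JUN family supplies the main partners with which FOS proteins bind DNA. *JUN* (ENSG00000177606) encodes c-Jun, the substrate from which the JNKs take their name, and lies on chromosome 1 from 59242517 to 59249720. Its level was 208 and 198 CPM in the miControl libraries and 130 and 131 CPM in the miR-6133-5p libraries, so the groups stood well apart. The log2 fold change was -0.64 (SE 0.101, adjusted p = 0.000382, edgeR quasi-likelihood test with Benjamini-Hochberg adjustment), past the looser rule only.

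*JUNB* (ENSG00000171223), on chromosome 19 from 12902300 to 12904129, encodes a JUN protein that activates transcription less than c-Jun on many promoters. Its level was 50.7 and 46.7 CPM with miControl and 35.5 and 33.0 CPM with miR-6133-5p. The groups stood apart by more than their spread. The log2 fold change was -0.51 (SE 0.106, adjusted p = 0.00259, edgeR quasi-likelihood test with Benjamini-Hochberg adjustment), past the looser rule only, and without miControl replicate 1 it was -0.46 and past neither (adjusted p = 0.0643, edgeR). Of its exon bases, 14.2% also lie in exons of *HOOK2*, which is read from the other strand, and the strand setting of the counting is not given in the sources used here.

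*JUND* (ENSG00000130522) encodes the JUN protein found in many resting cells and lies on chromosome 19 from 18390504 to 18392432. Alone among the JUN genes, it had a log2 fold change above 0. The miControl libraries held 14.4 and 13.5 CPM and the miR-6133-5p libraries 20.9 and 16.1 CPM, so that the spread within the treated group was wide. The log2 fold change was 0.40 (SE 0.138, adjusted p = 0.0427, edgeR quasi-likelihood test with Benjamini-Hochberg adjustment), past the looser rule only. This was lost without miR-6133-5p replicate 1 (log2 fold change 0.19, adjusted p = 0.321, edgeR), without miControl replicate 1 (0.44, adjusted p = 0.178, edgeR) and without miControl replicate 2 (0.33, adjusted p = 0.288, edgeR). It was also lost with counts thinned to the smallest library (adjusted p = 0.0695, edgeR) and by DESeq2 (adjusted p = 0.0506), while all 11 refits stayed above 0.

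The promoter of *JUND* is shown because it was the only one of the members' promoters that held TGACGTCA, the cAMP response element bound by ATF and CREB proteins and by JUN and ATF dimers. It lies at chr19:18281573-18281872 on the minus strand of GRCh38.p14 (RefSeq), with TGACGTCA in capitals 200 bases before the start:
JUND promoter: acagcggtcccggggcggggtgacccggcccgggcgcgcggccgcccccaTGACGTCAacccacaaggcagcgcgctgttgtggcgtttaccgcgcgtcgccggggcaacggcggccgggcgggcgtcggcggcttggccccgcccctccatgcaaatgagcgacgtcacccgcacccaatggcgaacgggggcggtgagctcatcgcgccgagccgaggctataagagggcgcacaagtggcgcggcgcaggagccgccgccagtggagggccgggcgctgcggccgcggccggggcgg

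Taken as a sum, the JUN family transcripts were 92.6 and 87.1 CPM per kb in the miControl libraries and 65.9 and 62.6 CPM per kb in the miR-6133-5p libraries. The mix within the family also differed. *JUN* made up 62.0% and 62.6% of the sum with miControl and 54.2% and 57.9% with miR-6133-5p. *JUND* made up 8.05% in each miControl library and 16.4% and 13.3% in the miR-6133-5p libraries. The share of *JUNB* overlapped between the groups, with means of 29.6% and 29.1%. No test was run on these shares.

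**Figure D2:**
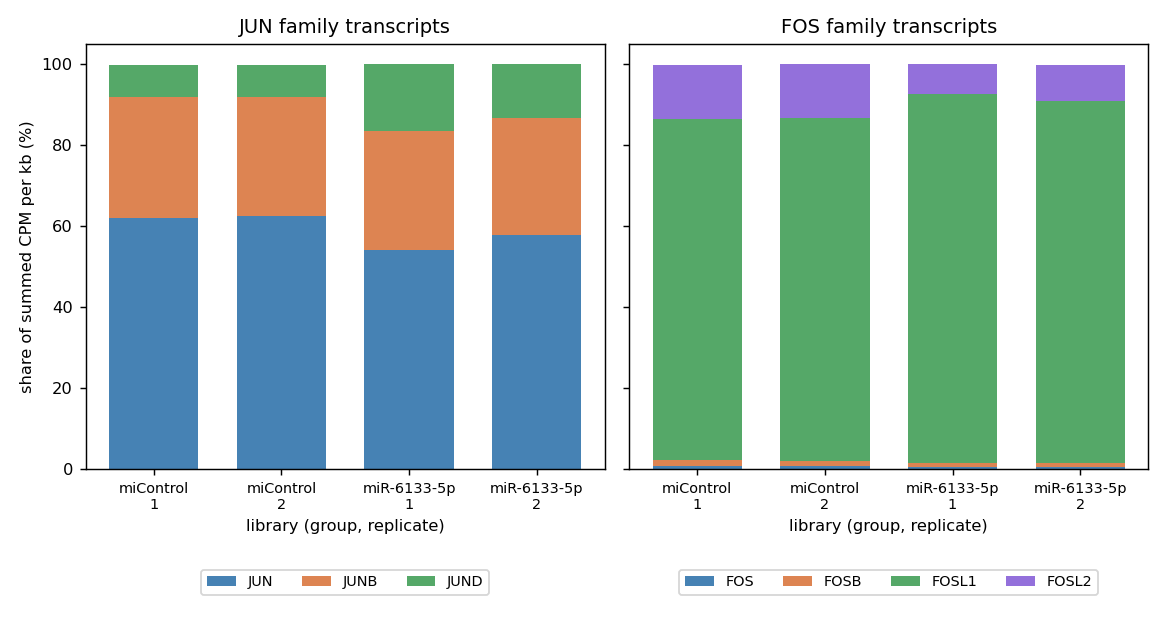
Share of each gene in the summed CPM per kb of its family (vertical axis, %) in each of the 4 libraries, with the JUN family on the left and the FOS family on the right. *JUND* takes 8.05% in each miControl library and 13.3% or more with miR-6133-5p, and *FOSL2* goes from a mean of 13.4% to one of 8.17%.

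FOS proteins act mainly through a JUN partner. *FOS* (ENSG00000170345), on chromosome 14 from 75745529 to 75748933, encodes c-Fos, the classical immediate early protein, whose RNA appears within minutes of a stimulus and is soon degraded. At this late time it was scarce, with 152 and 134 counts under miControl against 90 and 128 counts in the deeper treated libraries. These correspond to 3.09 and 2.46 CPM with miControl and to 1.38 and 1.29 CPM with miR-6133-5p. The treated libraries were close to each other and below the control libraries. *FOS* fell, with a log2 fold change of -1.06 (SE 0.235, adjusted p = 0.00412, edgeR quasi-likelihood test with Benjamini-Hochberg adjustment). This call was lost without miControl replicate 1 (log2 fold change -0.90, adjusted p = 0.0801, edgeR) and without miControl replicate 2 (log2 fold change -1.24, adjusted p = 0.0121, edgeR), each of which leaves 1 library to stand for miControl.

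*FOSB* (ENSG00000125740), on chromosome 19 from 45971253 to 45978437, encodes a close relative of c-Fos that is also induced early. It was measured at 10.4 and 8.78 CPM in the miControl libraries and at 6.22 and 6.01 CPM in the miR-6133-5p libraries, without overlap. The log2 fold change was -0.65 (SE 0.144, adjusted p = 0.00409, edgeR quasi-likelihood test with Benjamini-Hochberg adjustment), past the looser rule only, and without miControl replicate 1 it was -0.53 and past neither (adjusted p = 0.0900, edgeR).

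*FOSL1* and *FOSL2* encode FRA1 and FRA2, FOS proteins without the strong activation domain of c-Fos, which accumulate late and persist in growing cells. *FOSL1* (ENSG00000175592), on chromosome 11 from 65659520 to 65668044, had a level of 201 and 193 CPM with miControl, against 169 and 159 CPM in the treated libraries. The *FOSL1* log2 fold change of -0.26 (SE 0.102, adjusted p = 0.0684, edgeR quasi-likelihood test with Benjamini-Hochberg adjustment) passed neither rule, although the groups did not overlap. It passed the looser rule without miR-6133-5p replicate 1 (log2 fold change -0.32, adjusted p = 0.00868, edgeR) and without miR-6133-5p replicate 2 (log2 fold change -0.24, adjusted p = 0.0469, edgeR), and by DESeq2 (adjusted p = 0.0367).

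*FOSL2* (ENSG00000075426), on chromosome 2 from 28615315 to 28640184, had the smallest adjusted p-value of the 10 genes. FRA2 is known as a driver of fibrosis when it is overexpressed in mice. The level was 123 and 115 CPM in the miControl libraries and 52.5 and 60.1 CPM in the miR-6133-5p libraries, with each treated library far below each control library. *FOSL2* fell, with a log2 fold change of -1.08 (SE 0.109, adjusted p = 9.11e-06, edgeR quasi-likelihood test with Benjamini-Hochberg adjustment). It was called in all 11 refits with another scaling, filter, tool, depth or set of libraries. When glmTreat, which asks whether a change exceeds the fold threshold itself, was used, neither *FOSL2* (adjusted p = 0.0807) nor *FOS* (adjusted p = 0.658) was called.

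The promoter of *FOSL2* is shown because, of the members' promoters, only this one held TGACTCA, the element bound by JUN and FOS dimers. It lies at chr2:28392608-28392907 on the plus strand of GRCh38.p14 (RefSeq), with TGACTCA in capitals at bases 5 to 11 of the transcript:
FOSL2 promoter: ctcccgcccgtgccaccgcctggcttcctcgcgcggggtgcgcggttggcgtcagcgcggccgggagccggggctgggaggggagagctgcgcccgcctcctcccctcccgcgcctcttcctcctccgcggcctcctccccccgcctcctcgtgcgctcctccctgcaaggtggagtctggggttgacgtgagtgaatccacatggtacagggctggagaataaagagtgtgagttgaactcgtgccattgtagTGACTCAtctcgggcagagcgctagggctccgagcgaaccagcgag

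RefSeq promoters, from 250 bases before to 50 bases after the start, were matched for 9 of the 10 genes, the exception being *FOSL1*. TGACTCA, TGACGTCA and the CArG box of serum response factor were searched on both strands. Of the 27305 promoters of this length, 4.92% held TGACTCA, 1.98% held TGACGTCA and 1.29% held a CArG box. Of the 9 matched, 7 held none of these within that window, *FOS* and *JUN* among them, and bases outside it were not searched. A match is a run of letters and not a measured binding site.

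The FOS family sum was 127 and 121 CPM per kb in the miControl libraries and 98.4 and 94.4 CPM per kb in the miR-6133-5p libraries. *FOSL1* dominated it, with 84.2% and 84.8% of the sum in miControl and 91.0% and 89.5% in miR-6133-5p. *FOSL2* made up 13.5% and 13.3% with miControl and 7.45% and 8.89% with miR-6133-5p. *FOS* and *FOSB* together stayed minor, with mean shares of 0.703% and 1.39% in miControl and 0.434% and 1.14% in miR-6133-5p. Without length scaling the share of *FOSL2* was larger, 36.2% in miControl and 24.7% in miR-6133-5p, and differed in the same direction.

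*ATF3* (ENSG00000162772), on chromosome 1 from 212738676 to 212794119, encodes a stress-induced factor that pairs with JUN proteins and often represses transcription. Its level was 6.10 and 4.92 CPM with miControl and 7.05 and 6.23 CPM with miR-6133-5p. The groups came close to touching, and the log2 fold change of 0.27 (SE 0.161, adjusted p = 0.239, edgeR quasi-likelihood test with Benjamini-Hochberg adjustment) passed neither rule. It was 0.09 without miControl replicate 2, 0.16 without miR-6133-5p replicate 1, 0.42 without miControl replicate 1 and 0.43 with library totals alone.

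**Figure D3:**
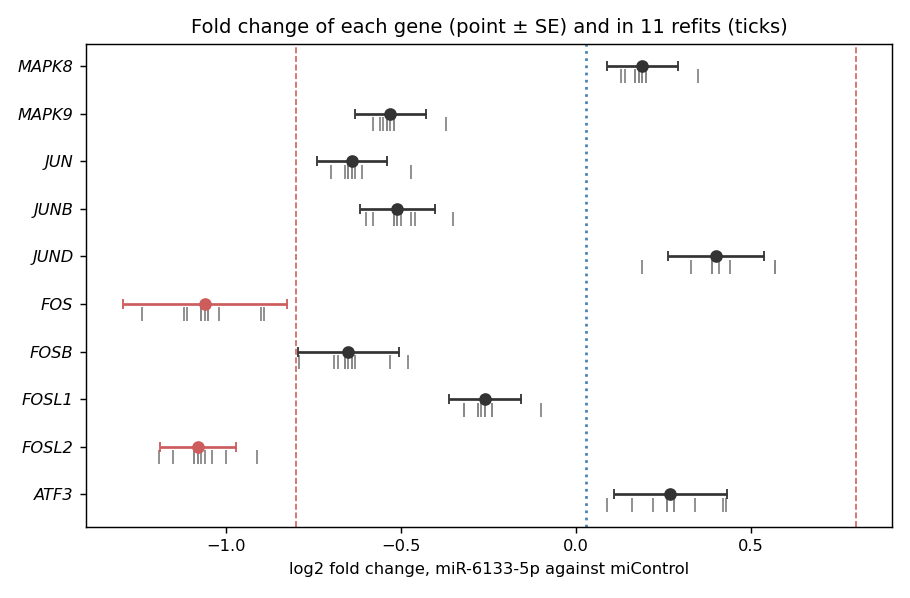
Log2 fold change of each gene, miR-6133-5p against miControl (horizontal axis), as a point with its SE worked back from the test, red where called lower. Grey ticks are the 11 refits, dashed lines mark the fold threshold of 0.8 in each direction and the dotted line marks the median of all tested genes, 0.03. *FOS* and *FOSL2* lie past the threshold, and no gene changes sign in any refit.

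The scaling of the libraries moves all of these values together. With library totals alone, without TMM factors, the median over all tested genes shifted up by 0.16 in log2 fold change, and 42.1% of the called genes were lower, against 65.6% with TMM. *FOSL2* was then -0.91 and *FOS* -0.89, both still called, and *JUN* was -0.47. *FOSL1* was -0.10. *MAPK8* was 0.35 and passed the looser rule (adjusted p = 0.0163, edgeR).

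The genes around the JNK and AP-1 members were described from 8 lists of 115 genes, of which 109 were tested, 14 called lower and 3 called higher. Over all tested genes 5.54% were called lower and 2.90% higher, so the share called higher in the lists was near that of all genes. Among 25 JNK-activating kinases, 1 was called lower, a share near the 5.54% of all tested genes, and the median log2 fold change was -0.13. None was called higher by edgeR or by DESeq2 (0 each). At an unadjusted p-value below 0.05, 6 were lower and 3 higher, against 3706 lower and 3642 higher of all 18252 tested genes. The one called lower was *MAP3K3*, which encodes MEKK3. It fell from 114 and 107 CPM in the miControl libraries to 45.0 and 44.9 CPM in the miR-6133-5p libraries, a log2 fold change of -1.30 (SE 0.102, adjusted p = 9.76e-07, edgeR). Without miR-6133-5p replicate 2 the count called lower was 2, with *TNIK* at -0.81 (adjusted p = 5.56e-06, edgeR), a gene chosen for naming after its values were seen. *MAP2K4*, whose product phosphorylates JNK and p38, had overlapping groups, with means of 49.2 and 49.9 CPM. *MAP2K7*, whose product is specific to JNK, had a log2 fold change of -0.34 (adjusted p = 0.0267, edgeR). *MAP3K5*, the gene of ASK1, was -0.13 and *MAP3K7*, the gene of TAK1 through which TGF-β reaches JNK, was 0.24, neither of them called.

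Of 9 genes for JNK scaffolds and phosphatases, 2 were called lower (5.54% of all tested genes). The median log2 fold change of the 9 was -0.08, and the groups overlapped for 6 of them. Both genes called lower encode phosphatases that switch off JNK and p38. *DUSP10* fell from 43.7 and 43.5 to 20.1 and 17.8 CPM, with a log2 fold change of -1.20 (adjusted p = 3.86e-06, edgeR). *DUSP16* was measured at 54.1 and 58.8 against 28.8 and 33.5 CPM, a log2 fold change of -0.86. It did not reach the fold threshold with library totals alone (-0.69) or without miR-6133-5p replicate 1 (-0.77). *DUSP1*, the early MAP kinase phosphatase, was -0.08, with overlapping groups.

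Of 14 other MAP kinases and MAP2Ks, edgeR and DESeq2 called 0 in either direction. At an unadjusted p-value below 0.05, 2 were lower and 4 higher, against 3706 lower and 3642 higher of all 18252 tested genes. With library totals alone, 1 was called higher. This was *MAP2K3*, an activator of p38 chosen for naming after its values were seen, at 29.4 and 27.4 against 49.2 and 47.0 CPM (log2 fold change 0.76 with TMM, adjusted p = 0.000125, edgeR). *MAPK14*, the gene of p38α, was 0.20 on the log2 scale. The list of other AP-1 related bZIP factors had 11 of 14 genes tested and likewise 0 called by edgeR and by DESeq2. Of these 11, 3 were lower and 2 higher at an unadjusted p-value below 0.05, against 3706 lower and 3642 higher of all 18252 tested genes. In that list, *ATF2*, a JNK and p38 substrate, was -0.18 and *JDP2*, a repressor that pairs with c-Jun, was 0.41. Under the looser rule, 3 bZIP genes were lower (16.1% of all tested genes) and 1 higher (14.1%), all chosen for naming after their values were seen. They were *MAFF* (-0.77), *CREB5* (-0.63), *ATF7* (-0.41) and *MAFG* (0.40). Of the exon bases of *ATF7*, 16.1% are shared with another gene on the same strand and 28.3% with genes on the opposite strand. *MAFF* was called lower without miControl replicate 2 (-0.87) and without miR-6133-5p replicate 1 (-0.84), and *CREB5* without miR-6133-5p replicate 2 (-0.82). The values of *MAPK14*, *ATF2* and *JDP2* missed both rules.

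Of 9 regulators of *JUN* and *FOS* transcription, 2 were called lower (5.54% of all tested genes), with a median of -0.17. *SRF* encodes serum response factor, which binds the CArG box of the *FOS* and *EGR1* genes. It was measured at 82.9 and 80.0 CPM with miControl and at 25.8 and 28.6 CPM with miR-6133-5p. The treated libraries lay far below the control libraries. *SRF* fell by 1.58 on the log2 scale (SE 0.106, adjusted p = 3.06e-07, edgeR) and was called in the 11 refits and with glmTreat. *ELK3*, which encodes a ternary complex partner of SRF, had 334 and 342 against 198 and 185 CPM, a log2 fold change of -0.82. It did not reach the fold threshold with library totals alone (-0.65) or without miR-6133-5p replicate 2 (-0.78). Among 4 JUN ubiquitin ligase genes, with a median of -0.24, only *DET1* was called lower (5.54% of all tested genes), at -0.88. Another gene on the same strand covers 35.9% of the exon bases of *DET1*. The *DET1* call was lost with library totals alone (-0.71). It was also lost without miControl replicate 1, where the log2 fold change of -0.84 missed only the p-value threshold.

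Of 17 tested immediate early genes other than the FOS and JUN families, 3 were called lower (5.54% of all tested genes) and 1 higher (2.90%), with a median of -0.17. *EGR1* had the lowest value, at 19.1 and 16.9 CPM in the miControl libraries and 3.43 and 3.40 CPM in the miR-6133-5p libraries, a log2 fold change of -2.40 (SE 0.137, adjusted p = 9.62e-08, edgeR). *EGR2* (-0.94) and *MYC* (-0.85) were the others called lower, and neither was called with library totals alone (-0.78 and -0.68). *ZFP36*, which encodes a protein that speeds the decay of many early RNAs, was called higher at 0.88, from 2.93 and 2.37 to 5.25 and 4.53 CPM. Its call was lost without miControl replicate 1 (log2 fold change 1.03, adjusted p = 0.0212, edgeR), without miControl replicate 2 (log2 fold change 0.71, adjusted p = 0.0651, edgeR) and without miR-6133-5p replicate 1, where the log2 fold change was 0.76.

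The promoters of *SRF* and *EGR1* were the only ones among 21 matched regulators and early genes that held a CArG box. They are shown, a choice made after their values were seen, because both genes fell. Capitals mark the CArG boxes, which begin 30 and 10 bases before the start of *SRF* (chr6:43171019-43171318, plus strand) and 105 and 83 bases before that of *EGR1* (chr5:138465229-138465528, plus strand), all in GRCh38.p14 (RefSeq):
SRF promoter: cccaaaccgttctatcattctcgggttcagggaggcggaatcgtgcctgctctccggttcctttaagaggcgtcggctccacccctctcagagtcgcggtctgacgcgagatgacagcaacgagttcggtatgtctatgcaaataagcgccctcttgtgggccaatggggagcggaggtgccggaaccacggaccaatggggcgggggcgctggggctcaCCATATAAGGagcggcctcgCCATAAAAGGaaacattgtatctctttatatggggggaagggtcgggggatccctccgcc
EGR1 promoter: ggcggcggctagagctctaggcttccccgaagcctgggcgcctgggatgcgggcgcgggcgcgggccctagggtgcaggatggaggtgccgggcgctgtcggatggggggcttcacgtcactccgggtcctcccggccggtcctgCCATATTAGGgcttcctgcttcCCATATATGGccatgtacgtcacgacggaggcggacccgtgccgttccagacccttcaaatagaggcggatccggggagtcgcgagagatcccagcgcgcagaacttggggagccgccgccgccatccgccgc

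Among 20 tested genes described as AP-1 targets, 5 were called lower (5.54% of all tested genes) and 2 higher (2.90%), with a median of -0.37. *LIF*, *HBEGF* and *FN1*, for a cytokine, a growth factor and fibronectin, were called lower, with log2 fold changes of -1.37, -1.22 and -1.07. *VEGFA*, chosen for naming after its values were seen, was called lower at 366 and 352 against 178 and 181 CPM. *PLAU*, the gene of urokinase, was called higher, from 16.7 and 17.2 to 37.2 and 31.2 CPM (log2 fold change 1.01, adjusted p = 3.56e-05, edgeR), and *C10orf55* on the opposite strand covers 31.0% of its exon bases. *MMP9* was called higher at 1.99 from a low level, 0.366 and 0.312 to 1.10 and 1.57 CPM, and its call was lost without miControl replicate 1 (log2 fold change 2.09, adjusted p = 0.0196, edgeR) and without miControl replicate 2 (log2 fold change 1.85, adjusted p = 0.0195, edgeR). *SLC12A5-AS1* on the opposite strand covers 18.4% of its exon bases. With glmTreat, 5 of the 17 genes called in these lists were called, *MAP3K3*, *SRF*, *EGR1*, *LIF* and *HBEGF*.

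**Figure D4:**
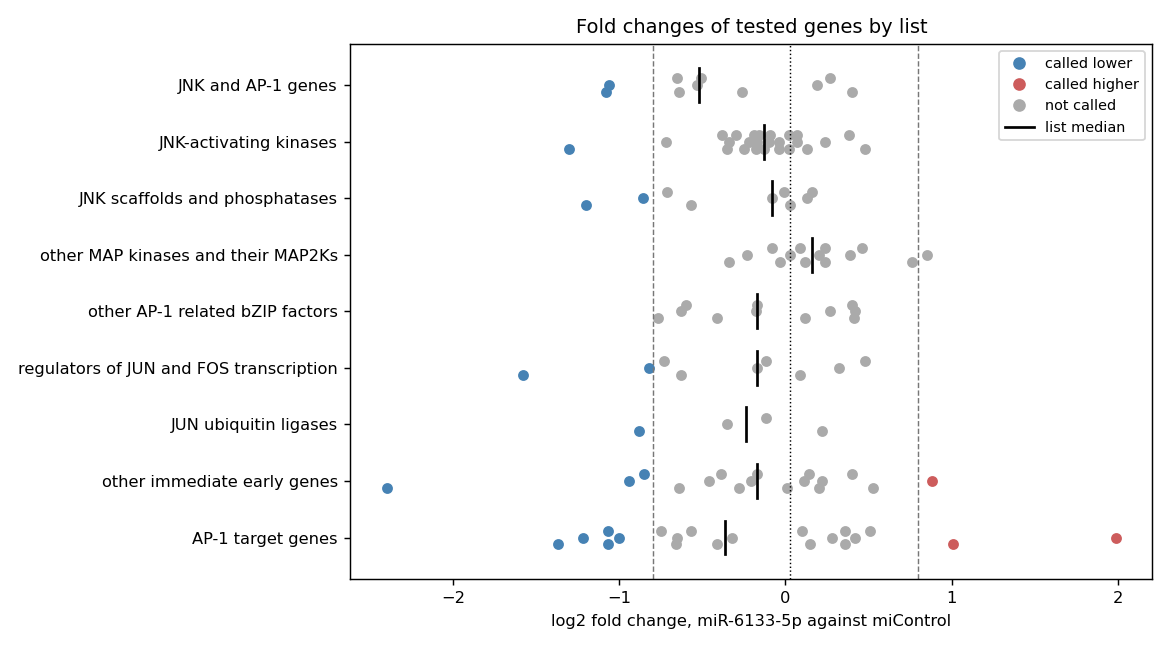
Log2 fold change, miR-6133-5p against miControl (horizontal axis), of every tested gene of the JNK and AP-1 genes and of the 8 other lists, one point per gene, blue where called lower and red where called higher, with a black line at each list's median. Dashed lines mark 0.8 in each direction and the dotted line the median of all tested genes. The lowest point is *EGR1* at -2.40 and the highest is *MMP9* at 1.99.

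Marker genes were read in the same libraries. Of 12 stellate cell markers, 9 were tested and 4 were called lower (5.54% of all tested genes), and their summed level was 5599 and 5079 CPM with miControl and 3364 and 3026 CPM with miR-6133-5p. Per length, *VIM* had the highest mean of them, 351 CPM per kb in miControl and 346 CPM per kb in miR-6133-5p, with *COL1A1* at 324 and 118 CPM per kb. *COL1A1* was called lower, at 3112 and 2723 against 995 and 1133 CPM (log2 fold change -1.46), and *ACTA2* was -1.95, with other genes on the opposite strand over 35.9% of its exon bases. *VIM*, with genes on the opposite strand over 24.6% of its exon bases, and *PDGFRB* had overlapping groups. Other stellate cell markers were near the limit of counting. *DES* had at most 3 counts in every library, *LRAT* 0 to 7, *DCN* 0 to 10 and *GFAP* 8 in each. *THY1* had means of 0.706 CPM in miControl and 0.892 CPM in miR-6133-5p. The 7 hepatocyte markers summed to between 2.05 and 2.84 CPM, with nearly all of the counts on *SERPINA1* and with *TTR* and *FGA* at 0 in all libraries, where 3 counts would be worth at most 0.0610 CPM. The 5 endothelial markers matched summed to between 2.87 and 3.17 CPM, with *KDR* as the largest part of the summed CPM, with *LYVE1* at 0. The 6 macrophage and leukocyte markers summed to between 9.16 and 11.2 CPM, mostly from *CSF1R*, with *CD163* at 0. The 4 cholangiocyte markers summed to 83.9 and 85.3 CPM with miControl and 39.9 and 36.8 CPM with miR-6133-5p, mostly from *SOX9*, which was called lower. Of the others, *KRT7* was measured at 3.62 and 4.44 against 6.61 and 7.08 CPM (log2 fold change 0.76, adjusted p = 0.00317, edgeR), short of the fold threshold. *KRT19*, at 0.0407 and 0.0734 against 0.153 and 0.182 CPM, and *EPCAM*, near 0, were not tested. The part of the change in stellate cell markers in the JNK and AP-1 values was not tested. The receptor genes *TGFBR2* (-2.31) and *FGFR1* (-0.96) were called lower in the same comparison, *FGFR1* not with library totals alone (-0.79), and their part in the JNK and AP-1 values was not tested either.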

How the data were processed

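The authors aligned read pairs to GRCh37 and deposited whole-number counts per Ensembl gene for each library, without normalization. The submitters' processing notes name STAR 2.5.3a and Subread 1.6.4. A mapping summary deposited with them gives uniquely mapped read pairs as a fraction of the input, 96.52% to 96.76% per library. There were 1.62 to 1.65 counts per input pair, so mates were counted separately for many pairs and counts are not independent molecules. The annotation release and strand setting are not given in the sources used here.

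Libraries were grouped by their titles, and the 2 groups were compared once. Counts were filtered with filterByExpr, summed again over the genes kept, scaled with TMM and tested with glmQLFit and glmQLFTest in edgeR 4.0.16 under R 4.3.3. With the totals of the genes kept scaled by TMM factors, 3 counts were worth at most 0.0610 CPM, in miControl replicate 1. Intervals were not computed, since counts carry more than counting error. Symbols, positions and exon lengths, found for 55665 of 63677 genes, were taken from GENCODE as lifted to GRCh37. The authors may have counted on another release. The procedure was tested on simulated data. Promoters and the hairpin came from RefSeq tables of GRCh38.p14.

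The members and lists were chosen with earlier results of these data known. Named genes were all members, up to 4 called genes per direction with the largest fold change from each other list, and fixed pathway genes, some of which are not reported here. Alternatives were RLE, library totals alone, DESeq2 1.42.0, other filters, a replicate block, thinned counts, each library left out, glmTreat, a looser threshold, another exon length and unscaled shares.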

Additional observations from a re-analysis of the deposited data

How the results depend on the processing

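All 10 members kept the sign of their log2 fold change in the 11 refits. *FOSL2* stayed between -1.19 and -0.91 and *FOS* between -1.24 and -0.89. With each library left out, which lets the lone library of an arm borrow the spread of the other arm, members called lower numbered 1 to 2, genes called lower 770 to 1249, genes called higher 293 (without miControl replicate 1) to 587, and called genes of the other lists 13 to 17 lower and 1 to 3 higher. Genes called higher numbered 977 with library totals alone, and 9 genes of the other lists were then called lower; the change of scale itself moved the median of all genes. With glmTreat, 326 genes were called lower and 80 higher, with 0 members, and 5 and 0 genes of the other lists, since it tests against the fold threshold itself. With an adjusted p-value below 0.05 and no fold threshold, 2937 genes were lower and 2574 higher, with 6 members lower and 1 higher, and 35 and 12 genes of the other lists.

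The groups share replicate numbers, but nothing says that a number marks a shared culture or day, and the deviations of same-numbered libraries had a correlation of 0.049 across genes, which are not independent. With a replicate block, 1130 genes were called lower and 642 higher, and members called lower numbered 2.

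With the longest transcript as length, levels in miControl and miR-6133-5p were 21.0 and 23.9 CPM per kb for *MAPK8*, 43.4 and 30.0 for *MAPK9*, 62.3 and 40.1 for *JUN*, 1.32 and 0.634 for *FOS*, 2.54 and 1.62 for *FOSB*, 116 and 96.5 for *FOSL1*, and 2.62 and 3.16 for *ATF3*; *FOSL2* was 17.7 in miControl. Without length scaling, shares in miControl and miR-6133-5p were 76.4% and 71.3% for *JUN*, 18.3% and 18.7% for *JUNB*, 5.25% and 10.1% for *JUND*, 0.844% and 0.585% for *FOS*, 2.91% and 2.68% for *FOSB*, 60.1% and 72.0% for *FOSL1*, and 36.2% and 24.7% for *FOSL2*.

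The count of miR-6133-5p seed matches in 3′ UTRs was not run. Groups of 2 libraries allow no test for an outlying library. *FOS* rests on 90 to 152 counts per library.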
